A study of Mus musculus with 32 samples.

Results

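Aminoacyl-tRNA synthetases load each transfer RNA with its amino acid, and their transcripts were followed in 32 single mouse oocytes. Members were chosen by gene symbol: the synthetase gene of each amino acid in its cytosolic form, with Farsa and Farsb for the 2 subunits of phenylalanyl-tRNA synthetase, and in its mitochondrial form, whose symbol ends in 2. Of 13175 genes, 18 are described as members, 16 mitochondrial and 2 cytosolic (Farsa and Farsb). The other 18 cytosolic enzyme genes named by the rule are not analysed here, so the cytosolic results are those of 1 enzyme.

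Cytosolic enzymes charge the tRNAs used by cytoplasmic ribosomes. Mitochondrial enzymes, made from nuclear genes and imported, charge the tRNAs that mitochondria use to make the few respiratory chain subunits they encode. Gars and Kars each make both forms of their enzyme, and mitochondrial glutaminyl-tRNA is made by amidation, which is why glycine, lysine and glutamine have no mitochondrial gene of their own here. A growing oocyte stores transcripts and mitochondria for the embryo, and in people inherited loss of function in AARS2, HARS2 or LARS2 can bring ovarian failure.

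Wild-type (WT) mouse follicles at the preantral stage were grown in encapsulated culture (eIVFG), either fresh or after vitrification, which cools them to a glass-like state. Germinal vesicle (GV) oocytes, arrested before the meiotic divisions, were taken on day 8, 4 per treatment. Metaphase II (MII) oocytes, the stage at which eggs are ovulated, were taken on day 9, 12 per treatment, from follicles that had been given hCG, the hormone that triggers ovulation and maturation. No GV oocyte is labelled with hCG, so stage, day and hCG cannot be told apart. Every follicle had been cultured, so fresh means cultured without vitrification. The labels call each oocyte a biological replicate and give no mouse or culture, so p-values rest on the spread between oocytes. Total counts ran from 10357543 to 17687247 in GV and from 5300210 to 12206521 in MII oocytes.

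All 18 oocyte markers were detected in every group. Summed cumulus and granulosa markers, from the somatic cells around the egg, ran from 67.3 to 136 CPM (counts per 1000000 of the scaled library) in GV oocytes, but reached 5414 CPM in MII fresh oocyte 11 and 869 CPM in MII vitrified oocyte 12, with medians of 101 and 123 CPM in the MII groups. The library numbers in the labels ran from 81 to 85 in GV and from 2 to 13 and 20 to 25 in MII oocytes, and all GV values were whole while 11.4% to 19.4% of MII values were not. Stage and these features of the libraries cannot be told apart. A shorter poly(A) tail and less transcript cannot be told apart either, since cDNA synthesis with this kit starts at the tail. CPM is relative to the other transcripts of the same library, so higher and lower do not refer to amounts per oocyte.

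Cytosolic phenylalanyl-tRNA synthetase is a tetramer of 2 kinds of subunit. Farsa encodes the alpha subunit, which holds the catalytic site, and lies on chromosome 8 (84856989 to 84869257, GRCm38, plus strand). Farsb encodes the beta subunit, which binds tRNA and removes tyrosine that was attached by mistake, and lies on chromosome 1 (78417975 to 78488897, minus strand). Fars2, on chromosome 13 (36117412 to 36726280, plus strand), encodes the single-chain mitochondrial enzyme for the same amino acid. The stretch that ends at the poly(A) signal is shown for these transcripts, because the signal places the tail that the library kit primes on. Each stretch has 30 bases, 5′ to 3′, from GENCODE M21 with the signal in capitals.
Farsa: ttggccctgcaggccagctgttttAATAAA
Farsb: gttcctggaggagatgagttggtaAATAAA
Fars2: tgggtctactttaggacgtcacgaAATAAA
In Farsa the letters TTTTAAT, a form of the cytoplasmic polyadenylation element through which maturing oocytes lengthen tails, started 47 bases before the transcript's end and overlapped with the signal, which started 43 bases before it. Neither TTTTAT nor TTTTAAT was found on the sense strand in the last 100 bases of Farsb or Fars2. These 2 motifs were in 3 of 18 members (16.7%) and 19.7% of 11355 tested genes, and AATAAA or ATTAAA was in 14 members (77.8%) and 80.7% of those genes.

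Farsb was higher in MII oocytes and Farsa was not called. In fresh oocytes Farsb had 116, 131, 131 and 179 CPM in the 4 GV oocytes, and from 274 to 569 CPM (median 407) in the 12 MII oocytes. Every MII oocyte lay above every GV oocyte. The log2 fold change was 1.54 ± 0.19 (SE, adjusted p = 2.78e-08 by edgeR's quasi-likelihood test). Of all 11470 genes tested, 22.8% were called higher in MII and 29.8% lower, and the median log2 fold change was −0.23.

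After vitrification the order was the same. Farsb had 143, 137, 76.0 and 176 CPM in GV oocytes and from 370.3 to 587 CPM (median 472) in MII oocytes. The groups did not overlap, and the log2 fold change was 1.85 ± 0.20 (SE, adjusted p = 6.85e-10 by edgeR), where 23.3% of genes were called higher and 33.7% lower with a median of −0.34. MII values were not whole in 23 of 24 oocytes for Farsb, in 19 for Farsa and in 14 or fewer for each other member. Of the exon bases of Farsb, 9.47% overlap with Sgpp2 on the opposite strand. The sources used here do not say whether the authors' counting used strand.

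Farsa was not called in either treatment. In fresh oocytes it had 85.6, 86.4, 69.8 and 96.5 CPM in GV and from 25.2 to 138 CPM (median 72.3) in MII, and the log2 fold change was −0.15 ± 0.32 (SE, 95% interval −0.81 to 0.50, adjusted p = 0.717 by edgeR). In vitrified GV oocytes it had 10.5, 103, 91.2 and 90.9 CPM, and from 64.4 to 102 CPM (median 86.3) in MII. Oocyte 1 was far below the other 3 GV oocytes, and the remaining values overlapped with MII. The vitrified log2 fold change was 0.18 ± 0.33 (SE, 95% interval −0.49 to 0.84, adjusted p = 0.667 by edgeR), and −0.16 without GV vitrified oocyte 1.

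**Figure D1:**
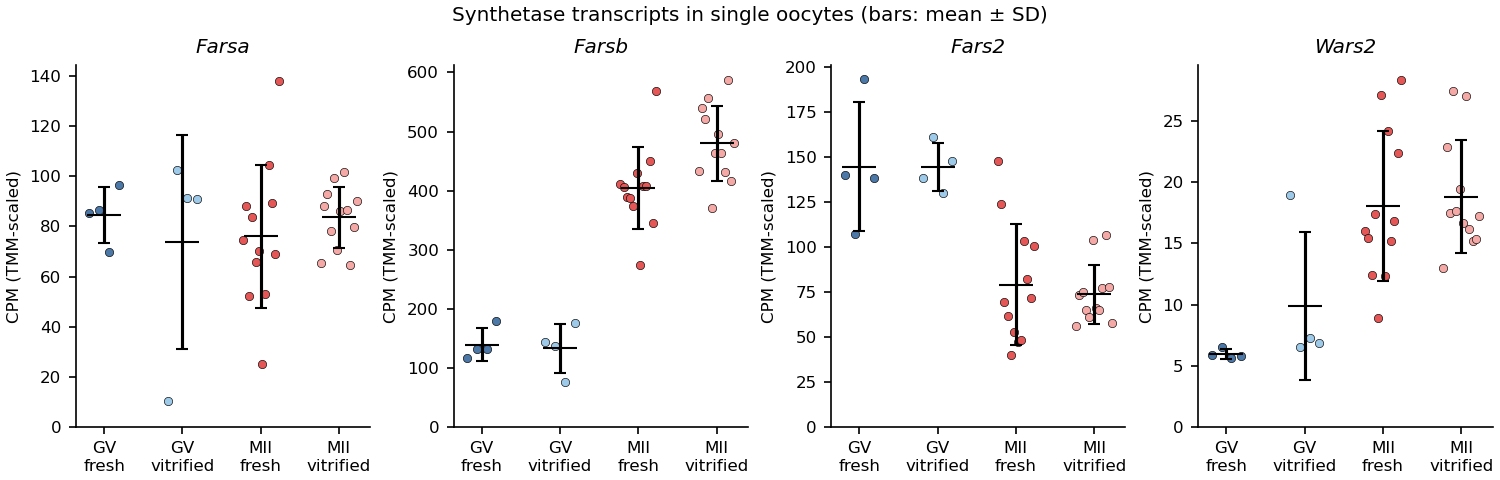
CPM of Farsa, Farsb, Fars2 and Wars2 in each oocyte (points) by group, with mean ± SD (n = 4 per GV group, 12 per MII group). Farsb lies above every GV oocyte in all MII oocytes, and GV vitrified oocyte 1 is the low point of Farsa (10.5 CPM) and the high GV point of Wars2 (19.0 CPM).

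Per kilobase of exon, Farsb exceeded its partner already in GV oocytes, at 53.2 ± 10.4 against 18.6 ± 2.43 CPM per kb for Farsa (SD, n = 4, fresh). In fresh MII oocytes the levels were 154 ± 26.2 and 16.8 ± 6.27 CPM per kb (SD, n = 12). These levels depend on the length used, here the union of all exons: the ratio of the mean levels was 2.85 in fresh GV and 9.21 in fresh MII oocytes, and 1.48 and 4.77 per kb of 1 coding transcript, a length chosen after seeing the data. Because both counts come from the same library, their ratio does not depend on scaling, and it was compared after the values of both genes had been seen. The Farsb to Farsa count ratio was 1.35, 1.52, 1.88 and 1.85 in fresh GV oocytes and from 3.91 to 10.9 (median 5.29) in fresh MII oocytes. No MII ratio reached down to a GV ratio, and the log2 ratio was higher in MII by 1.79 (exact permutation p = 0.0011, two-sided, adjusted p = 0.0044 over 4 comparisons).

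In vitrified GV oocytes the ratio was 13.7, 1.33, 0.833 and 1.94, and in vitrified MII oocytes from 3.72 to 9.11 (median 5.69). GV oocyte 1 lay above every vitrified MII oocyte and the other 3 lay below them all. The log2 ratio differed by 1.30 (exact permutation p = 0.033, adjusted p = 0.066 over the 4 comparisons), and by 2.16 without GV vitrified oocyte 1. The exact permutation p of 0.0044 found without that oocyte is fixed by the oocyte removed and is no test of the stages. The unadjusted p was above 0.05 without GV vitrified oocyte 2, 3 or 4 (differences of 1.04, 0.81 and 1.22, exact permutation p = 0.127, 0.132 and 0.0615).

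**Figure D2:**
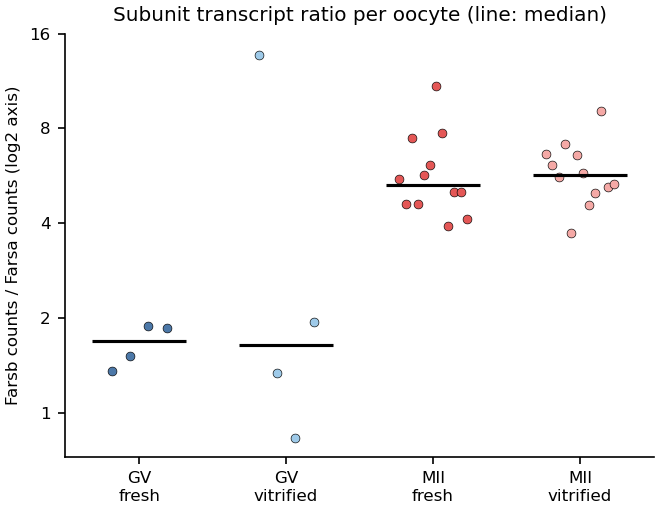
Ratio of Farsb to Farsa counts in each oocyte on a log2 axis, with the median of each group as a line. MII medians are 5.29 and 5.69 against 1.69 and 1.64 in GV, and GV vitrified oocyte 1 stands apart at 13.7.

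Most mitochondrial enzymes that were called were lower in MII oocytes. Of the 16 genes, 15 passed the filter on low counts in the stage comparisons and Hars2 did not. In fresh oocytes 9 were lower, 1 was higher and 5 were not called, with a median log2 fold change of −1.56. In vitrified oocytes 9 were lower, 2 were higher and 4 were not called, with a median of −1.51, and the same 9 genes were lower in both treatments. The share called lower among all genes was 29.8% and 33.7%. Aars2, Sars2, Tars2 and Vars2 passed the filter through their GV level alone (at least 4 of 8 GV and under 4 of 24 MII oocytes). Passing in this way requires a difference between stages. Iars2, Mars2 and Nars2 passed through their MII level alone (at least 4 of 24 MII and under 4 of 8 GV oocytes). As MII oocytes were more numerous, this did not require a difference, but these genes were tested because of their MII level. The remaining 8 mitochondrial genes passed in both stages, and 5 of them (Cars2, Ears2, Fars2, Lars2 and Rars2) were lower.

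**Figure D3:**
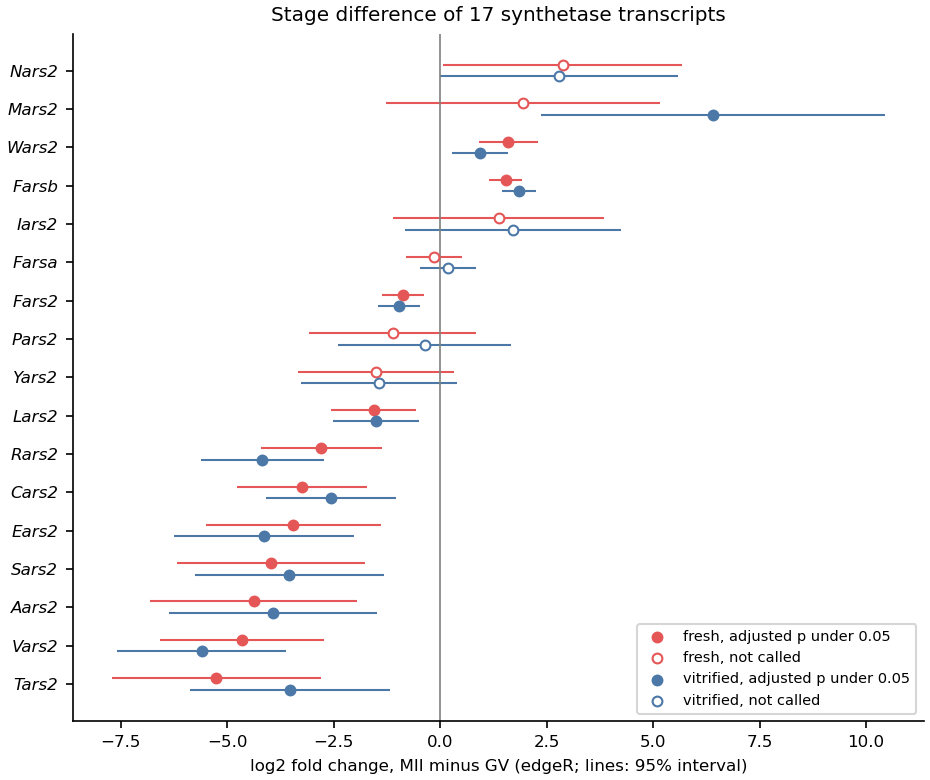
Log2 fold change, MII minus GV, of the 17 members tested, in fresh and vitrified oocytes, with 95% intervals from edgeR. Filled points passed an adjusted p of 0.05, and the same 9 mitochondrial genes are filled to the left of 0 in both treatments.

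Fars2 was the most abundant mitochondrial member per kilobase of exon, with 25.1 ± 6.22 CPM per kb in fresh GV oocytes (SD, n = 4), followed by Rars2 at 7.23 ± 5.03, Lars2 at 4.14 ± 1.68 and Sars2 at 3.00 ± 2.81. The last 3 did not differ beyond their spread, and per kb of 1 coding transcript Fars2 was also highest (67.9 CPM per kb), followed by Lars2 (11.8) and Rars2 (10.7). Fars2 had 139.5, 107, 193 and 138 CPM in fresh GV oocytes and from 39.9 to 148 CPM (median 70.2) in MII oocytes. These ranges overlapped, and the log2 fold change was −0.87 ± 0.25 (SE, adjusted p = 0.00331 by edgeR). After vitrification it had 138, 161, 129.9 and 148 CPM in GV and from 55.9 to 107 CPM (median 69.8) in MII, without overlap (−0.97 ± 0.25, SE, adjusted p = 0.00107 by edgeR). Of its exon bases, 8.72% overlap with Nrn1 on the opposite strand.

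Lars2, the leucine enzyme (chromosome 9, 123366927 to 123462666, GRCm38), had 34.4, 66.4, 26.5 and 56.5 CPM in fresh GV oocytes and from 2.75 to 25.7 CPM (median 15.9) in MII. All MII oocytes were below all GV oocytes, and the log2 fold change was −1.56 ± 0.49 (SE, adjusted p = 0.00782 by edgeR). In vitrified oocytes it had 13.5, 26.9, 80.0 and 37.9 CPM in GV and from 1.57 to 30.7 CPM (median 12.2) in MII. Those groups overlapped, and the difference of −1.51 ± 0.49 on the log2 scale (SE, adjusted p = 0.00912 by edgeR) became −0.91 (adjusted p = 0.165 by edgeR) without GV vitrified oocyte 3. Against MII libraries numbered 20 and over alone, Lars2 was not called in either treatment (−1.17 and −1.01, adjusted p = 0.0887 and 0.131 by edgeR).

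Rars2, the arginine enzyme, had 17.0, 19.0, 38.9 and 5.28 CPM in fresh GV oocytes and from 0 to 16.4 CPM (median 1.76) in MII. The highest MII value was that of fresh oocyte 11, the oocyte highest in cumulus markers, and the next was 3.91 CPM. The log2 fold change was −2.79 ± 0.70 (SE, adjusted p = 0.00103 by edgeR), −3.58 without that oocyte, and −2.01 (adjusted p = 0.0703 by edgeR) against MII libraries numbered 20 and over alone. In vitrified oocytes it had 40.0, 33.0, 32.9 and 15.9 CPM in GV and from 0.405 to 4.19 CPM (median 1.09) in MII, without overlap (−4.18 ± 0.71, SE, adjusted p = 5.52e-06 by edgeR).

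Cars2, the cysteine enzyme, had 9.96, 16.8, 7.92 and 12.2 CPM in fresh GV oocytes and from 0.154 to 3.86 CPM (median 1.03) in MII, without overlap. Its log2 fold change was −3.25 ± 0.75 (SE, adjusted p = 4.24e-04 by edgeR). In vitrified oocytes Cars2 had 3.85, 7.40, 6.02 and 22.2 CPM in GV and from 0 to 5.03 CPM (median 1.03) in MII, with overlap. The vitrified log2 fold change was −2.56 ± 0.75 (SE, adjusted p = 0.00414 by edgeR), and −1.79 (adjusted p = 0.0761 by edgeR) without GV vitrified oocyte 4. Ears2, the glutamate enzyme, had 10.1 ± 6.65 CPM in fresh GV (SD, n = 4) and 0.915 ± 0.943 CPM in fresh MII oocytes (SD, n = 12). Its log2 fold changes were −3.45 ± 1.01 in fresh and −4.13 ± 1.04 (SE) in vitrified oocytes.

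The 4 enzymes that passed the filter through GV alone were close to the limit of detection in MII oocytes, where a count of 0 in 1 oocyte allows a level of up to 0.274 to 0.668 CPM, counting error only. Aars2 (alanine) had 5.03 ± 2.94 CPM in fresh GV oocytes (SD, n = 4) and was at 0 in 8 of 12 fresh MII oocytes. Sars2 (serine) had 9.95 ± 9.31, Tars2 (threonine) 7.78 ± 6.47 and Vars2 (valine) 6.73 ± 5.24 CPM in fresh GV (SD, n = 4), and their fresh MII means ran from 0.197 CPM for Tars2 to 0.615 CPM for Sars2. Fitted log2 fold changes of these 4 ran from −5.26 (Tars2) to −3.98 (Sars2) in fresh oocytes and from −5.60 (Vars2) to −3.54 in vitrified oocytes. Single oocytes moved several of these values: Aars2 in vitrified oocytes was −2.59 without GV vitrified oocyte 3 (adjusted p = 0.105 by edgeR) and −5.16 without MII vitrified oocyte 5. In fresh oocytes Aars2 was −5.39 without MII oocyte 4, and without GV oocyte 4 Sars2 was −3.09, Tars2 −4.60 and Vars2 −4.00. Without MII fresh oocyte 11 Tars2 was −6.30 in fresh oocytes, and in vitrified oocytes Tars2 was −4.55 without MII oocyte 12, Sars2 −5.23 without MII oocyte 3 and Vars2 −6.22 without MII oocyte 9. Tars2 was not called in vitrified oocytes against MII library numbers of 20 and over alone (−2.97, adjusted p = 0.0583).

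**Figure D4:**
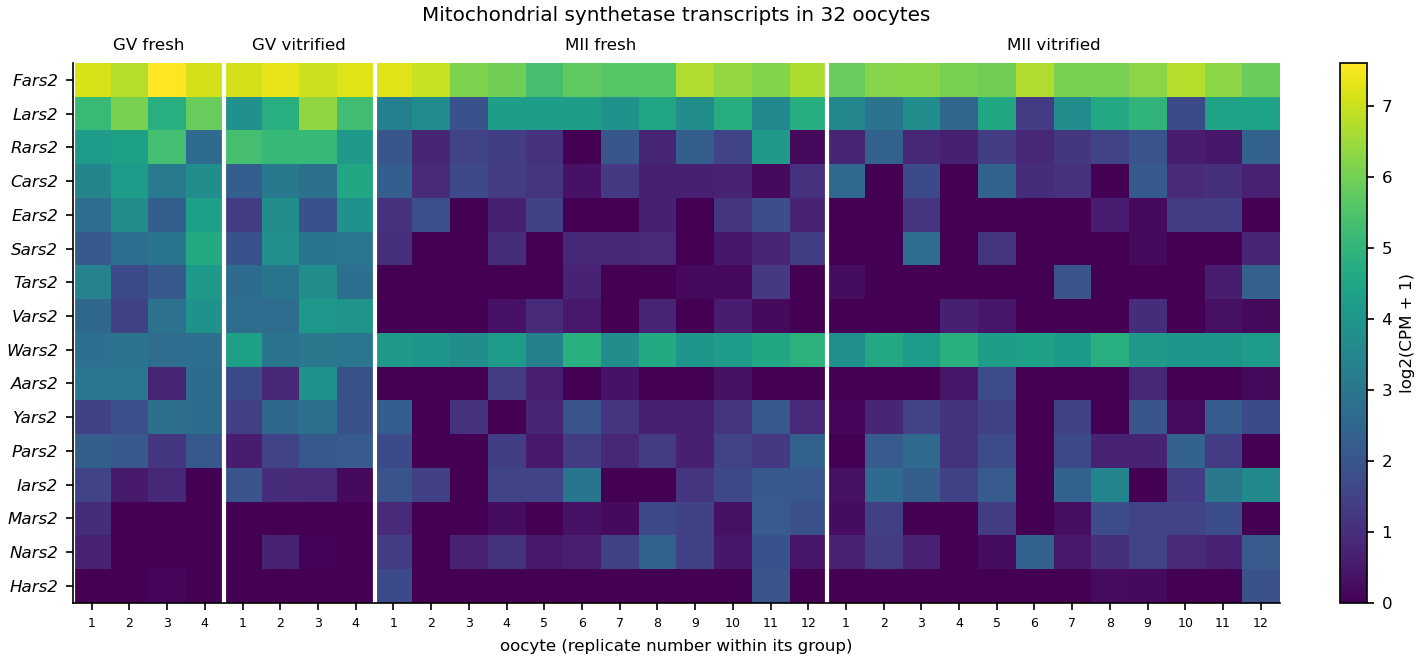
Levels of the 16 mitochondrial members as log2(CPM + 1) in all 32 oocytes, ordered by mean level in fresh GV oocytes. Fars2 and Lars2 stay bright in most MII oocytes, Wars2 is brighter there than in GV, and MII fresh oocyte 11 and vitrified oocyte 12 show Hars2, which is at or near 0 in all but 1 of the others.

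Wars2, the tryptophan enzyme (chromosome 3, 99141068 to 99239186, GRCm38), went the other way. It had 5.83, 6.53, 5.62 and 5.82 CPM in fresh GV oocytes and from 8.89 to 28.4 CPM (median 16.4) in MII. Every MII oocyte was higher than every GV oocyte, and the log2 fold change was 1.60 ± 0.34 (SE, adjusted p = 1.52e-04 by edgeR). In vitrified GV oocytes it had 19.0, 6.54, 7.24 and 6.84 CPM, against 12.99 to 27.4 CPM (median 17.4) in MII. Oocyte 1 fell within the MII range and the other 3 below it. The log2 fold change was 0.93 ± 0.32 (SE, adjusted p = 0.0144 by edgeR) and 1.46 without GV vitrified oocyte 1. It was 0.77, 0.80 and 0.79 without GV vitrified oocyte 2, 3 or 4 (adjusted p = 0.0704, 0.0626 and 0.068 by edgeR), 0.91 (adjusted p = 0.059) against MII libraries numbered 20 and over alone, and 0.52 (adjusted p = 0.155) when libraries were scaled by total counts alone. GV vitrified oocyte 1 was low in Farsa and high in Wars2. Its Ccnb1 (the cyclin of M phase entry) was the highest of the 8 GV oocytes, at 2442 CPM against 384 to 1475 CPM. The same oocyte had the fewest genes detected of the 8, at 10708 against 11392 to 11910. Its total was 11159677 counts, where GV totals ran from 10357543 to 17687247. What part these features had in its synthetase values was not tested.

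NRF1 is a transcription factor of nuclear genes for mitochondrial proteins and binds GCGCATGC, searched here on both strands (GCATGCGC is its other strand) from 250 bases before to 50 after the gene's start. Of 16 members with a RefSeq promoter, 3 held it, Wars2, Rars2 and Vars2, and of all 27025 genes 2.8% did. The 80-base stretches around it are shown because these 3 genes went in opposite directions between stages, Wars2 higher and Rars2 and Vars2 lower. The motif is in capitals, 5′ to 3′ on the gene's strand, from RefSeq on GRCm38.p6, at chr3:99141000-99141079 (plus) for Wars2, chr4:34614867-34614946 (plus) for Rars2 and chr17:35667603-35667682 (minus) for Vars2, which holds it at 2 places.
Wars2: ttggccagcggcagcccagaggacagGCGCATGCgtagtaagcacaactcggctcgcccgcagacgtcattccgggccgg
Rars2: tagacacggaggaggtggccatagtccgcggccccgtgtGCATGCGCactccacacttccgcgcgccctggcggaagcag
Vars2: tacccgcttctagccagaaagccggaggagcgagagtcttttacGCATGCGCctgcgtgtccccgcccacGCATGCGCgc
A match of letters is not a binding site. Another 5 motifs were searched in the same way. The amino acid response element TGATGNAA was in 0 of 16 members and in 4.06% of all genes, the E-box CACGTG in 2 members and 7.24%, the CCAAT box in 6 and 37.9%, the cyclic AMP response letters TGACG in 6 and 21% and the TATA box TATAAA in 3 and 14.2%. Member promoters had a median GC content of 57.8%, against 52.7% over all genes, and what part this had in the motif counts was not tested.

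The remaining members were low and varied widely among oocytes. Mars2 (methionine) was at 0 in all 4 vitrified GV oocytes and had 1.05 ± 1.06 CPM in vitrified MII oocytes (SD, n = 12). That mean was 25.8-fold a floor of 3 counts over the GV group, a floor that leaves out the spread between oocytes. Mars2 was called in vitrified oocytes (adjusted p = 0.00661 by edgeR). Having passed the filter through its MII level alone, it was tested because of its level there, which favours a call of higher. In fresh oocytes it was not called (1.95 ± 1.58, SE), and 1 GV oocyte, fresh 1, held all 24 of its fresh GV counts. Leaving that oocyte out sets the fresh GV group to 0, so the call edgeR then makes (adjusted p = 0.017) is fixed by the oocyte removed and is no test of the stages. Nars2 (asparagine) had log2 fold changes of 2.87 ± 1.38 and 2.79 ± 1.38 (SE, adjusted p = 0.079 and 0.0821 by edgeR), and was called by DESeq2 (adjusted p = 0.0322 and 0.0315) and limma-voom (adjusted p = 0.00224 and 0.00473). GV fresh oocyte 1 held all 16 of its fresh GV counts and GV vitrified oocyte 2 held 13 of 14 vitrified ones, so the edgeR calls made without these oocytes (adjusted p = 0.00238 and 0.00962) are likewise no test.

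Iars2 (isoleucine) had 0.798 ± 0.812 CPM in fresh GV and 2.09 ± 1.89 CPM in fresh MII oocytes (SD, n = 4 and 12), and 22.9% of its exon bases overlap with Rab3gap2 on the opposite strand. Pars2 (proline) and Yars2 (tyrosine) had 2.95 ± 1.15 and 3.93 ± 2.07 CPM in fresh GV (SD, n = 4) and 1.35 ± 1.15 and 1.37 ± 1.27 CPM in fresh MII oocytes (SD, n = 12). Of 17 members tested, MII lay wholly below GV for 6 in fresh oocytes (Cars2, Ears2, Lars2, Sars2, Tars2 and Vars2). In vitrified oocytes it did so for 4 (Fars2, Rars2, Tars2 and Vars2). The shares of all genes were 18.5% and 20.7%. Because Sars2, Tars2 and Vars2 passed the filter through their GV level alone, their lack of overlap was partly fixed by the filter. MII lay wholly above GV for Farsb and Wars2 in fresh and for Farsb in vitrified oocytes, against 12.5% and 13.2% of all genes.

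Summed over the 16 mitochondrial members, the median level in GV oocytes was 276 CPM (fresh) and 281 CPM (vitrified), and 124 and 125 CPM in MII oocytes. Fars2 made up between 40.9% and 79.3% of this sum in single oocytes. Without Fars2 the sums ran from 99.0 to 188 CPM in GV and from 21.1 to 71.7 CPM in MII oocytes. The highest of the MII oocytes was fresh oocyte 11, with 71.7 CPM, and the highest of the vitrified MII oocytes was oocyte 12, with 67.1 CPM.

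Both are the oocytes high in summed cumulus markers. Inha, a granulosa cell hormone subunit, had 1676 and 192 CPM and the expansion gene Tnfaip6 441 and 104 CPM in them, against MII medians of 0.281 and 0 CPM. Not every marker was high. Fshr, at 0.614 and 0.127 CPM, lay below its MII median of 0.802 CPM. Has2 and Ptx3 had 26.7 and 250 CPM in fresh oocyte 11 but 0.635 and 2.92 CPM in vitrified oocyte 12, against medians of 0 CPM. The cumulus gene Lhcgr was at 0 in all fresh MII oocytes. Fresh oocyte 11 had the highest level of its group in 4 mitochondrial members (Hars2, Mars2, Rars2 and Tars2) and vitrified oocyte 12 in 4 (Hars2, Iars2, Rars2 and Tars2). This was not particular to them. MII fresh oocyte 12, with 99.4 CPM of summed cumulus markers, was also highest in 4 (Lars2, Pars2, Sars2 and Wars2). Its sum without Fars2 was 68.9 CPM, against 71.7 CPM in fresh oocyte 11. MII vitrified oocyte 8, with 119 CPM of cumulus markers, had 66.8 CPM, against 67.1 CPM in vitrified oocyte 12. Hars2, the histidine enzyme, reached 2.92 CPM in fresh oocyte 11, 2.67 CPM in vitrified oocyte 12 and 2.27 CPM in MII fresh oocyte 1. It had at most 0.177 CPM in the other 29 oocytes. Without the 2 oocytes high in summed cumulus markers, edgeR called 9 mitochondrial members lower in fresh and 9 in vitrified oocytes. Of the 11262 genes then tested, 3639 and 3977 were lower. Each of the 2 had the highest sum without Fars2 in its MII group, so leaving them out could hardly reduce these calls. What part somatic transcripts had in the MII levels was not tested.

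Did vitrification change the synthetase transcripts within a stage? None passed the test. In GV oocytes edgeR called 0 of 15 members tested and 0 of 10831 genes (0%), with 180 genes and 0 members at an unadjusted p under 0.05. On the log2 scale, vitrified minus fresh, Farsb had a difference of −0.05 ± 0.31 (SE, 95% interval −0.72 to 0.62), Farsa −0.19 ± 0.51 (−1.29 to 0.91, and 0.17 without GV vitrified oocyte 1) and Wars2 0.75 ± 0.55 (SE, −0.44 to 1.95, and 0.21 without that oocyte). The intervals include differences of 2-fold for Farsa and Wars2. DESeq2 and limma-voom also called 0 genes.

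In MII oocytes edgeR called 0 of 8 members and 0 of 8428 genes (0%), with 1055 genes at an unadjusted p under 0.05, DESeq2 called 52 genes and 0 members, and limma-voom called 0 genes. Farsb was the 1 member with an unadjusted p under 0.05. Its level was 404 ± 68.7 CPM in the 12 fresh and 480.1 ± 63.1 CPM (SD) in the 12 vitrified oocytes. The log2 fold change was 0.26 ± 0.11 (SE, 95% interval 0.04 to 0.48, adjusted p = 0.333 by edgeR), 0.35 within library numbers under 20 and 0.12 within 20 and over. Farsa differed by 0.14 ± 0.18 (SE, 95% interval −0.22 to 0.51), 0.35 within numbers under 20 and −0.11 within 20 and over. The log2 ratio of Farsb to Farsa differed by 0.51 in GV (exact permutation p = 0.8, and −0.34 without GV vitrified oocyte 1) and by 0.027 in MII oocytes (permutation p = 0.859, 100000 resamples).

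No member was called for a stage difference that differed between treatments. For the interaction of stage and treatment edgeR called 0 of 17 members and 0 of 11470 genes (0%), with 467 genes at an unadjusted p under 0.05, DESeq2 called 8 genes and 0 members, and limma-voom called 0. The interaction was 0.31 ± 0.25 for Farsb, 0.33 ± 0.46 for Farsa and −0.67 ± 0.43 for Wars2 (SE, log2). Mars2 had 4.45 ± 1.91 (SE, unadjusted p = 0.0261, adjusted p = 1 by edgeR), a fitted value that depends on the prior count because all vitrified GV oocytes were at 0.

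Genes that work beside the synthetases were described from lists. Of the 3 scaffold proteins that hold several cytosolic synthetases in a complex, Aimp2 (−3.61 ± 0.33, SE) and Eef1e1 (−1.92 ± 0.35) were lower in fresh MII oocytes, and Aimp1 was at −1.06 ± 0.50 (adjusted p = 0.0699 by edgeR), while all 3 were lower in vitrified oocytes. Of 7 genes that remove wrong or stalled amino acids from tRNA, 5 were lower in fresh and 6 in vitrified oocytes and 0 were higher. Among them were the peptidyl-tRNA hydrolase Ptrh2, at 146 ± 39.1 CPM in fresh GV (SD, n = 4) and 3.54 ± 1.85 CPM in fresh MII oocytes (SD, n = 12), and Aarsd1, which hydrolyses mischarged alanine tRNA, at 61.9 ± 23.7 and 1.75 ± 2.64 CPM. Medians over these lists were −1.92 and −1.46 in fresh oocytes, where the median of all genes was −0.23. Of all genes, 29.8% were called lower and 22.8% higher in fresh, and 33.7% and 23.3% in vitrified oocytes.

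The mitochondrial amidation and formylation genes, which finish glutaminyl-tRNA and the initiator methionyl-tRNA, had 0 calls among 4 in either treatment. The formyltransferase Mtfmt had 21.8 ± 11.4 CPM in fresh GV (SD, n = 4) and 23.3 ± 8.56 CPM in fresh MII oocytes (SD, n = 12), and the amidation subunits Gatb, Gatc and Qrsl1 had fresh GV means of 0.922 to 2.53 CPM. Of 25 genes of tRNA processing and export, 22 were tested, and 11 were lower and 2 higher in fresh, 14 lower and 3 higher in vitrified oocytes (median −1.79 and −2.70), where 29.8% and 33.7% of all genes were lower and 22.8% and 23.3% higher. RNase P trims the front of tRNA precursors. Of 9 components of its nuclear form tested, 6 were lower in fresh oocytes (Pop5 at −5.81 ± 0.58, Rpp21 at −5.61 ± 0.46 and Rpp38 at −4.24 ± 0.34, SE) and 3 (Pop1, Rpp14 and Rpp40) were not called, and in vitrified oocytes 7 were lower. In the mitochondrial form the nuclease Prorp was lower (−4.07 ± 0.34, SE, fresh) and its partner Trmt10c was higher, at 1.15 ± 0.40 in fresh and 1.45 ± 0.41 in vitrified oocytes (SE, adjusted p = 0.0151 and 0.0028 by edgeR), while Hsd17b10 was not called in fresh (−0.91 ± 1.27) and was lower in vitrified oocytes (−3.17 ± 1.22, SE).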

How the data were processed

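RNA of single oocytes was made into libraries with a SMART-Seq v4 kit, per the labels. The submitters' processing notes name HISAT2, featureCounts and mm10. The deposited values were taken as counts for GV oocytes, where all were whole, and taken to be expected counts for MII oocytes, where 11.4% to 19.4% were not whole for a reason that the sources do not state. Expected counts were rounded to whole numbers. Of 13202 entries, 27 exact repeats were removed. Every gene has an MII total of at least 10, while 376 genes have only zeros in GV oocytes, which shows a limit set by MII values.

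Counts were tested with edgeR 4.0.16 in R 4.3.3 (TMM, filterByExpr with a minimum count of 10 and total of 15, quasi-likelihood F test, Benjamini-Hochberg at 0.05 over all genes tested). Stages and the interaction came from 1 fit of 32 oocytes with 4 group means, and treatments were compared within a stage. The code was tested on simulated data. CPM uses TMM-scaled library sizes, and per-kb levels use exon lengths of GENCODE M21 (GRCm38). Ratios were compared by exact permutation (scipy 1.17.1). The filter corresponds to 1.31 CPM at the median depth. Of the genes of the rule that were found, 1 is not reported here and the others are described, and of other lists up to 4 genes with the smallest p in the fresh stage comparison and a few named ones. Members and lists were chosen with earlier results of these data known. Alternatives were DESeq2 1.42.0, limma-voom 3.58.1, other scalings and filters, and subsets of oocytes. Intervals and floors cover counting error or spread between oocytes only.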

Additional observations from a re-analysis of the deposited data

Results flagged for a closer look

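In GV groups of 4, the gap of the highest or lowest oocyte to its nearest neighbour exceeded Dixon's 95% critical value in 8 of 36 groups with any count. Among the 36 were the Farsb to Farsa log2 ratios of each treatment, which were not flagged. Chance gives about 1 in 20 for normally distributed values. CPM of low counts need not be distributed in that way, so the rate is only a guide. It does not apply where only 1 oocyte had counts (3 of the 8), since the gap is then the whole range. GV vitrified oocyte 1 had 10.5 CPM of Farsa, against 90.9 to 103 CPM in the other 3, and 19.0 CPM of Wars2, against 6.54 to 7.24 CPM. GV vitrified oocyte 3 had 13.6 CPM of Aars2, against 0.805 to 2.69 CPM. GV fresh oocyte 4 had 23.8 CPM of Sars2, against 3.48 to 6.73 CPM. The others are genes at or near 0 in the rest of their group: GV fresh oocyte 1 had 0.972 CPM of Mars2 and 0.648 CPM of Nars2, GV vitrified oocyte 2 had 0.654 CPM of Nars2, and GV fresh oocyte 3 had 0.0921 CPM of Hars2, under the floor of 3 counts.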

How the results depend on the processing

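Farsb was called higher under all 28 alternatives in each treatment (log2 fold change 1.15 to 1.75 in fresh, 1.37 to 2.01 in vitrified oocytes). Scaling by total counts moved the median of all genes from −0.23 to −0.61 in fresh and from −0.34 to −0.81 in vitrified oocytes, and the calls from 2615 higher and 3413 lower to 1992 and 4142, and from 2678 and 3861 to 1945 and 4703. The 9 lower mitochondrial members were 5 in each treatment with a filter of 10 CPM, which left fewer genes to test. Of the 8202 genes left, 2873 in fresh and 3151 in vitrified oocytes were lower. With limma-voom 10 members were lower in each treatment, Yars2 among them, and 4255 and 4281 of 11470 genes. Against MII library numbers of 20 and over alone, 7 members were lower in each, and 2765 and 3260 of 11102 genes. The number higher in fresh oocytes was 2 with DESeq2 and with limma-voom (1 as reported) and 1 to 3 when single oocytes were left out. In vitrified oocytes it was 1 (2 as reported) with total counts, with the 10 CPM filter, with the replicate block and within library numbers under 20 or of 20 and over, 3 with DESeq2 and with limma-voom, and 1 to 2 when single oocytes were left out. Fresh and vitrified oocytes of the same replicate number deviated together with r from −0.381 to 0.191 in GV and −0.328 to 0.282 in MII. Replicate numbers do not follow the library numbers, and pairing by library number was not tested. With the replicate block, 8 mitochondrial members were lower in fresh (Sars2 −3.33, adjusted p = 0.0992 by edgeR) and 8 in vitrified oocytes (Cars2 −2.40). Of 11470 genes, 3139 and 3528 were then lower. Farsb stayed higher, with 0 calls for treatment or interaction. Directions turned for uncalled values: with library numbers of 20 and over only, Farsa was 0.21 in fresh stages and −0.11 between MII treatments, and with total counts Farsa was −0.38 in vitrified stages. Leaving out single oocytes gave −0.16 to 0.38 for Farsa in vitrified stages, −0.020 to 0.54 for its interaction, −0.39 to 0.17 for Farsa and −0.20 to 0.14 for Farsb between GV treatments, and −0.34 to 1.00 for the GV log2 ratio, an alternative chosen after seeing the data. The cause of these changes was not tested. Counts of a few reads limit Aars2, Tars2, Vars2, Mars2, Nars2 and Hars2.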

Other observations

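Decoding steps after charging were described from lists in the same fit, MII minus GV, where 22.8% and 23.3% of all genes were higher and 29.8% and 33.7% lower in fresh and vitrified oocytes. Of 13 cytosolic elongation factors tested, 6 were lower and 2 higher in fresh and 9 lower and 2 higher in vitrified oocytes. Eef1a1 carries charged tRNA to the ribosome. It had 723 ± 329.8 CPM in fresh GV (SD, n = 4) and 77.0 ± 145 CPM in fresh MII oocytes (SD, n = 12). Eif5a, which helps ribosomes through stalling peptides, had 253 ± 86.4 CPM in fresh GV and 1022 ± 201 CPM in fresh MII oocytes. Of 10 mitochondrial translation factors, 5 were lower and 3 higher in each treatment. The elongation factors Gfm1 (1.79 ± 0.19, SE, fresh) and Tsfm (2.08 ± 0.31) were higher, while the elongation factor Tufm was lower (−3.91 ± 0.91). The release factor Mtrf1 (−4.39 ± 0.43) and the recycling factor Mrrf (−2.14 ± 0.27) were also lower.

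Selenocysteine is made on its tRNA after serine has been attached. Of 7 genes of this route 3 were higher and 2 lower in each treatment: Sephs2, which makes selenophosphate, had 23.96 ± 8.43 CPM in fresh GV (SD, n = 4) and 278 ± 113 CPM in fresh MII oocytes (SD, n = 12), and Pstk, the kinase of seryl-tRNA, 27.1 ± 6.65 and 2.62 ± 2.05 CPM. Of 23 genes of the amino acid response tested, which in other cells raises synthetase transcripts through Atf4, 7 were higher and 3 lower in fresh and 7 higher and 5 lower in vitrified oocytes, beside the same shares of all genes. Slc3a2, a chain of amino acid transporters, was higher (1.98 ± 0.22, SE) and Ddit3, a stress transcription factor, lower (−5.99 ± 0.54), while Atf4 was not called in fresh oocytes (−1.23 ± 0.67, adjusted p = 0.125 by edgeR) and was lower in vitrified oocytes (−1.55 ± 0.66, adjusted p = 0.0443). Asns was higher in fresh (2.19 ± 0.81, adjusted p = 0.0231) and not called in vitrified oocytes (1.19 ± 0.76, adjusted p = 0.184 by edgeR).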
